A study of Danio rerio with 24 samples.

Results

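The comparison described here is the genotype-by-diet interaction in larval zebrafish liver, measured in the 12 libraries of the 3 batches that hold all 4 groups. For each gene and batch, the diet difference in wild-type livers was subtracted from the diet difference in miR-21-overexpressing livers on the log2 scale of CPM, counts scaled to the library size. A positive interaction therefore means that the cholesterol diet left a gene higher, relative to the control diet, in miR-21-overexpressing than in wild-type livers. Genes were described where this value had the same sign in 3 of 3 batches and where the mean was at least 50 counts over the 12 libraries. These were 2462 of the 11030 genes with that mean, out of 32520 in the table. The interaction was positive in 1485 of them and negative in 977, and genes are called higher or lower here by that sign. Because the sign of the interaction chose these genes, their interaction values are given as a description.

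Larvae were sampled at 13 days post fertilization after feeding from day 6 with either the normal control diet, NCD, or the diet with 10% cholesterol, HCD. The 4 groups, WT-NCD, WT-HCD, miR-21OE-NCD and miR-21OE-HCD, had 3 libraries each, and every library held the pooled dissected livers of 13 larvae. The batches carry the labels 1/12-25, 11/21_C and 11/21_D and are called batches 7, 8 and 9, with miR-21OE replicates 1, 2 and 3 in that order. WT larvae were siblings without the transgene, in lines outcrossed to AB. The miR-21OE larvae carried a transgene in which the fabp10a promoter, active in hepatocytes, drives dre-mir-21-1 together with the fluorescent protein Dendra2, and the construct has a cryaa:mCherry lens marker. A construct lacking dre-mir-21-1 was not among the libraries, so the microRNA and the rest of the construct cannot be told apart. Another 12 WT libraries, from batches 1 to 6 with 1 library per diet each, were used as a diet response that shares no library with the interaction.

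Cells hold their sterol content steady by feedback. When cholesterol is plentiful, the SREBP transcription factors stay inactive and the genes of sterol synthesis and LDL uptake are transcribed less, while oxysterols activate LXR, whose targets export sterols. SREBP also drives fatty acid desaturases and elongases. miR-21 is a microRNA abundant in injured and malignant liver, where in mammals it represses, among others, regulators of lipid metabolism and growth signalling.

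Library totals of the 12 libraries lay between 22380251 and 30487724 counts. The transgene was read from dre-mir-21-1 [MIR21 in the gene table], which lay at 117 to 210 counts per miR-21OE library, at 12 to 53 for WT-NCD and at 36 to 139 for WT-HCD. Its miR-21OE minus WT difference was 1.32, 2.01 and 4.15 on NCD and 0.33, 1.69 and 1.96 on HCD in batches 7, 8 and 9 (log2). On HCD the genotypes were thus close in batch 7. Its own interaction was lower in 3 of 3 batches (-1.0, -0.32 and -2.20 on the log2 scale), with WT diet differences of 1.15, 0.16 and 1.62 and miR-21OE diet differences of 0.15, -0.16 and -0.58. The lens gene cryaa had 7 to 25 counts in miR-21OE and 0 or 1 in WT libraries. Hepatocyte markers were detected throughout, and their summed level was lowest in WT-HCD 7, at 28159.8 CPM against 48090.0 to 77535 CPM in the other 11 libraries. Summed levels of 13 exocrine pancreas markers stood out in miR-21OE-NCD 3 with 43395 CPM, WT-NCD 8 with 16300 CPM and WT-NCD 9 with 7714 CPM, against 517 to 3723 CPM in the other 9 libraries. The interaction of that sum was -0.86, 1.78 and -3.31 by batch. The part of these shifts in the values of single genes was not tested.

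No gene of the 21660 tested passed for the interaction in edgeR's quasi-likelihood test (Benjamini-Hochberg adjusted p under 0.05), with or without the batch as a replicate block. Without an adjustment 348 genes had a p under 0.05, which is 1.61% of the genes tested, and 454 did with the block, 2.1%. The median standard error of the interaction was 0.48 on the log2 scale, or 0.37 with the block, over the 11030 genes. DESeq2 called 0 genes without a batch term, where the lowest adjusted p was 0.40, and 310 genes had an unadjusted p under 0.05 (1.44%). DESeq2 with the replicate block called 8 genes, 7 higher (0.0323% of those tested) and 1 lower (0.00462%), with 442 at an unadjusted p under 0.05 (2.04%). The 8 were fads2, cyp27b1, dio2 and dusp2, which had mean counts of 424 to 32074 per library, and si:dkey-95h12.1, chad, CNNM1 and ENSDARG00000116963. Each of the latter had a mean of at most 1.58 counts per library, so no fold is given for them. On simulated data with known interactions, DESeq2 with the replicate block made 37 false calls among 21244 genes tested. edgeR made 13 with the block and 0 without it.

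The 3 batches ordered the genes differently. Across 11030 genes, the interaction of one batch correlated with that of another at r = -0.04 for batches 7 and 8, 0.03 for batches 7 and 9 and -0.14 for batches 8 and 9. The batches share no library, but the genes within a library are not independent, and these values are a description. By Pearson r, the diet difference was more alike between batches in WT livers (0.27, 0.07 and 0.36 for the same pairs). In miR-21OE livers it was so for batches 8 and 9 (0.07, 0.03 and 0.27). By rank (Spearman), the same pairs were at 0.26, -0.0042 and 0.068 in WT and 0.044, -0.076 and 0.22 in miR-21OE livers. For the interaction the rank values were -0.021, 0.0081 and -0.13. By rank, WT livers of batches 8 and 9 were therefore less alike than miR-21OE livers. The interaction spread over genes with an SD of 0.79, 0.74 and 0.74 in batches 7, 8 and 9. Its sign was the same in all batches for 13.5% of genes in the higher direction and 8.86% in the lower direction, together 22.3%. Signs that fell evenly and independently in each batch would agree in 25% of genes. With library totals in place of TMM normalization the split was 849 higher and 1618 lower, a shift of -0.10 in the median of all genes, and 849 of the 1485 higher genes and 975 of the 977 lower genes kept their sign in all batches.

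**Figure D1:**
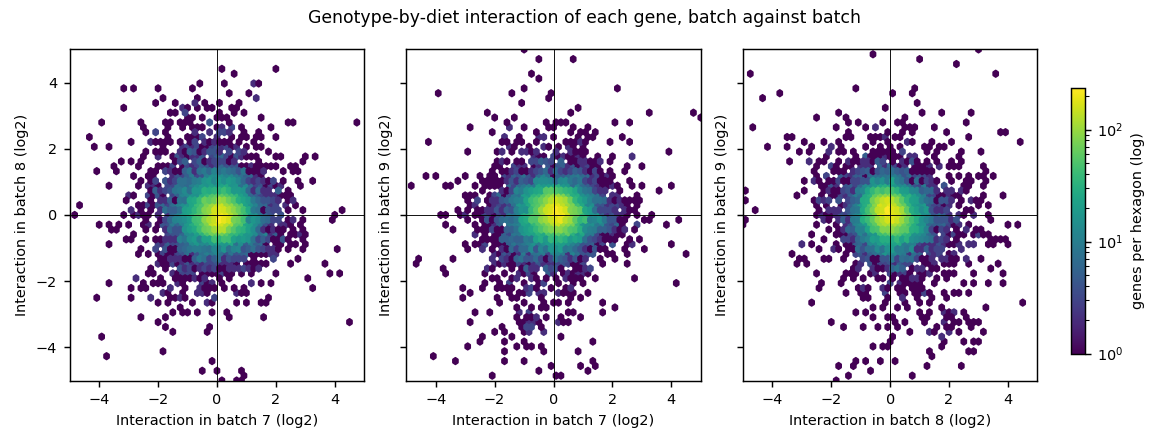
Each panel plots the interaction of 11030 genes in one batch (x axis, log2) against another (y axis, log2), with colour for the number of genes per hexagon. The clouds are round, with r between -0.14 and 0.03, and 44 genes lie beyond 5 in at least 1 batch, outside the axes where that batch is shown.

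Few genes had a sizeable interaction in every batch. The smallest of the 3 batch values was at least 0.5 in 101 higher and 89 lower genes, and at least 1 in 13 and 11. One gene, cyp27b1, reached 2 in every batch. Of the 12 higher and 12 lower genes with the largest such values, 11 each are described by name, with members of pathway and cell type lists. At the count threshold, the members reached down to a mean of 50 counts, and the nearest same-sign gene outside had 49.9. Values of at least 4 in size in a single batch occurred on both sides, with 12, 12 and 13 genes higher and 15, 12 and 33 genes lower in batches 7, 8 and 9. Of the 33 lower genes in batch 9, 14 had the same sign in all batches.

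The same-sign genes were next set against the diet response of the 6 WT-only batches. Genes with a higher interaction were mostly those that other WT livers expressed less on cholesterol, and genes with a lower interaction mostly those they expressed more. Of 1448 higher genes measured there, 1075 (74.2%) had a mean diet difference below 0, against 55.8% of all 10730 genes. Of 955 lower genes, 660 (69.1%) had one above 0, against 44.2% of all genes. The diet test of the WT-only batches called 14 genes higher on cholesterol (0.0598% of 23420) and 20 lower (0.0854%) in edgeR with Benjamini-Hochberg adjustment. The higher same-sign genes held 9 of the lower diet genes and 0 of the higher ones. The lower same-sign genes held 3 of the higher diet genes and 0 of the lower ones. With the replicate block the diet called 457 genes higher (1.95%) and 336 lower (1.43%), and restricted to the 11030 genes it called 315 in each direction (2.86%). Of the higher same-sign genes, 84 (5.66%) were called lower on cholesterol and 2 higher. Of the lower same-sign genes, 81 (8.29%) were called higher and 4 lower.

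Across 10730 genes, the mean interaction correlated with the diet difference of the WT-only batches at r = -0.46, a description over genes that share the libraries they come from. The WT diet difference enters the interaction with a minus sign. The value is therefore negative where WT livers of batches 7 to 9 follow the WT-only response more than miR-21OE livers do. By batch the value was -0.45, -0.10 and -0.19, and it was -0.23 without batch 7. The diet difference of the WT livers of batches 7 to 9 correlated with that of the WT-only batches at r = 0.72, and the diet difference of the miR-21OE livers did so at 0.40. By batch these were 0.60, 0.57 and 0.34 in WT livers and 0.17, 0.45 and 0.14 in miR-21OE livers, so WT was above miR-21OE in each batch.

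**Figure D2:**
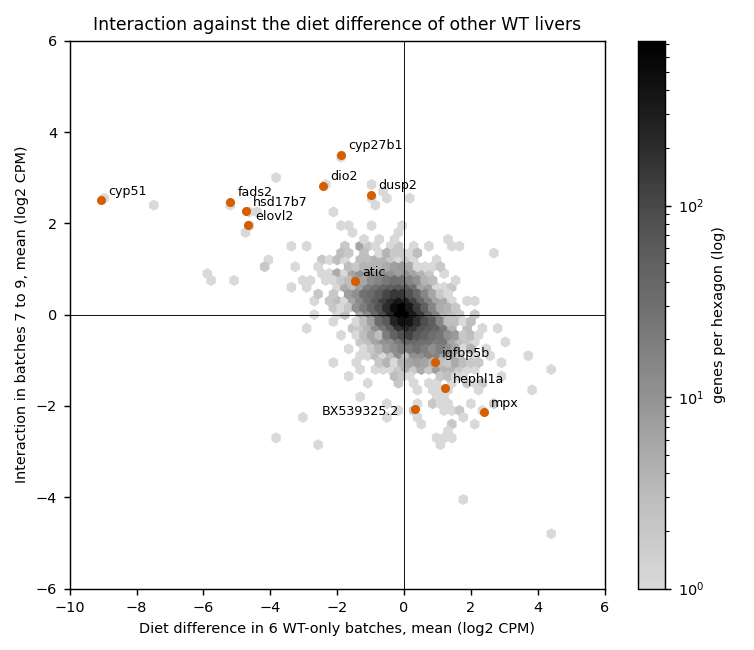
Mean interaction of batches 7 to 9 (y axis, log2 CPM) against the mean diet difference of the 6 WT-only batches (x axis, log2 CPM) for 10730 genes, with grey for the number of genes per hexagon and 12 named genes in orange. The cloud slopes downwards (r = -0.46), with cyp51, fads2, hsd17b7 and elovl2 at the upper left and mpx and hephl1a at the lower right.

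Over the mean of batches 7 to 9, the diet genes of the WT-only batches had smaller median diet differences in miR-21OE than in WT livers. The 20 genes called lower there had a median diet difference of -4.11 in WT livers of batches 7 to 9 and of -3.28 in miR-21OE livers, and the mean interaction was above 0 in 19 of 20. By batch, their median interaction was 0.35, 0.71 and 2.37, and it was above 0 in 11, 17 and 19 of the 20. Their median diet difference was far smaller in batch 7, at -1.33, -5.06 and -4.93 by batch in WT livers. In miR-21OE livers it was -1.13, -4.56 and -3.35. The 10 genes called higher that reached 50 counts on average had medians of 1.81 in WT and 1.27 in miR-21OE livers, with a mean interaction below 0 in 10 of 10. For the 315 genes per direction called with the replicate block, the medians were -0.62 in WT and -0.32 in miR-21OE livers for genes lower on cholesterol, and 0.67 and 0.30 for genes higher on cholesterol. Batch 8 departed from this for the genes higher on cholesterol, where 131 of 315 had a negative interaction and the median was 0.11. For the genes lower on cholesterol, 177 of 315 had a positive interaction in batch 8, with a median of 0.13.

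Among the same-sign genes themselves, the mean diet difference had opposite signs in both genotypes in 911 of 1485 higher genes (61.3%) and in 563 of 977 lower genes (57.6%), against 35.7% of all 11030 genes. The direction of the interaction was part of the choice, and these shares are given without a test. In 365 higher and 295 lower genes the diet difference kept its sign and was smaller in miR-21OE livers, and in 209 and 119 it was larger. Opposite signs in every batch were found in 92 higher and 58 lower genes. Such signs fix the sign of the interaction, so these are all 150 genes of the 11030 with that pattern. The median higher gene had a miR-21OE minus WT difference of -0.19 on NCD and 0.19 on HCD, and the median lower gene was at 0.24 and -0.18.

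The desaturase fads2 (ENSDARG00000019532, FADS3 in the gene table) and the elongase elovl2 (ENSDARG00000045414), which together make long-chain polyunsaturated fatty acids, were strongly lower on cholesterol in WT livers and kept more of their expression in miR-21OE livers. In batches 7, 8 and 9, fads2 was at 1222, 2778 and 2578 CPM in WT-NCD and at 59.8, 272 and 108 CPM in WT-HCD. Its level in miR-21OE-NCD was 908, 3026 and 2477 CPM, and that in miR-21OE-HCD was 442, 606 and 877 CPM. WT-HCD was lowest in every batch, and all 3 WT-HCD libraries lay below all 9 others. The genotypes were alike on NCD (log2 differences of -0.43, 0.12 and -0.058) and apart on HCD (2.88, 1.2 and 3.02). The interaction of fads2 was 2.48 ± 1.26 (SD, n = 3) on the log2 scale, with a Benjamini-Hochberg adjusted p of 0.000531 by DESeq2 with the replicate block and no call by edgeR. In the WT-only batches, which the interaction does not use, it fell on cholesterol by 5.20 ± 0.89 (SD, n = 6), lower in 6 of 6 batches (edgeR adjusted p 0.0186 with Benjamini-Hochberg adjustment).

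WT livers had 249, 1570.5 and 1953 CPM of elovl2 on NCD and 24.8, 298 and 109 CPM on HCD in batches 7, 8 and 9. For miR-21OE livers the values were 118, 1944 and 1092 CPM on NCD and 72.2, 505 and 426 CPM on HCD. Levels in batch 7 were the lowest of the 3 batches in all 4 groups. WT-HCD was lowest in each batch, and across batches the HCD groups overlapped. The interaction was 2.62, 0.45 and 2.81 in batches 7, 8 and 9, so batch 8 was the smallest, as for fads2 (3.31, 1.03 and 3.08). Across the WT-only batches elovl2 fell by 4.65 ± 1.1 (SD, n = 6; edgeR with Benjamini-Hochberg adjustment, adjusted p 0.0147). Of the 20 genes of fatty acid synthesis and desaturation with a mean of at least 50 counts, 2 were higher and 2 lower in all batches, beside 13.5% and 8.86% of all genes, with a median interaction of 0.17 beside 0.04. The elongase elovl5, which acts in the same pathway, had mixed signs (1.2, -0.73 and 0.89).

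**Figure D3:**
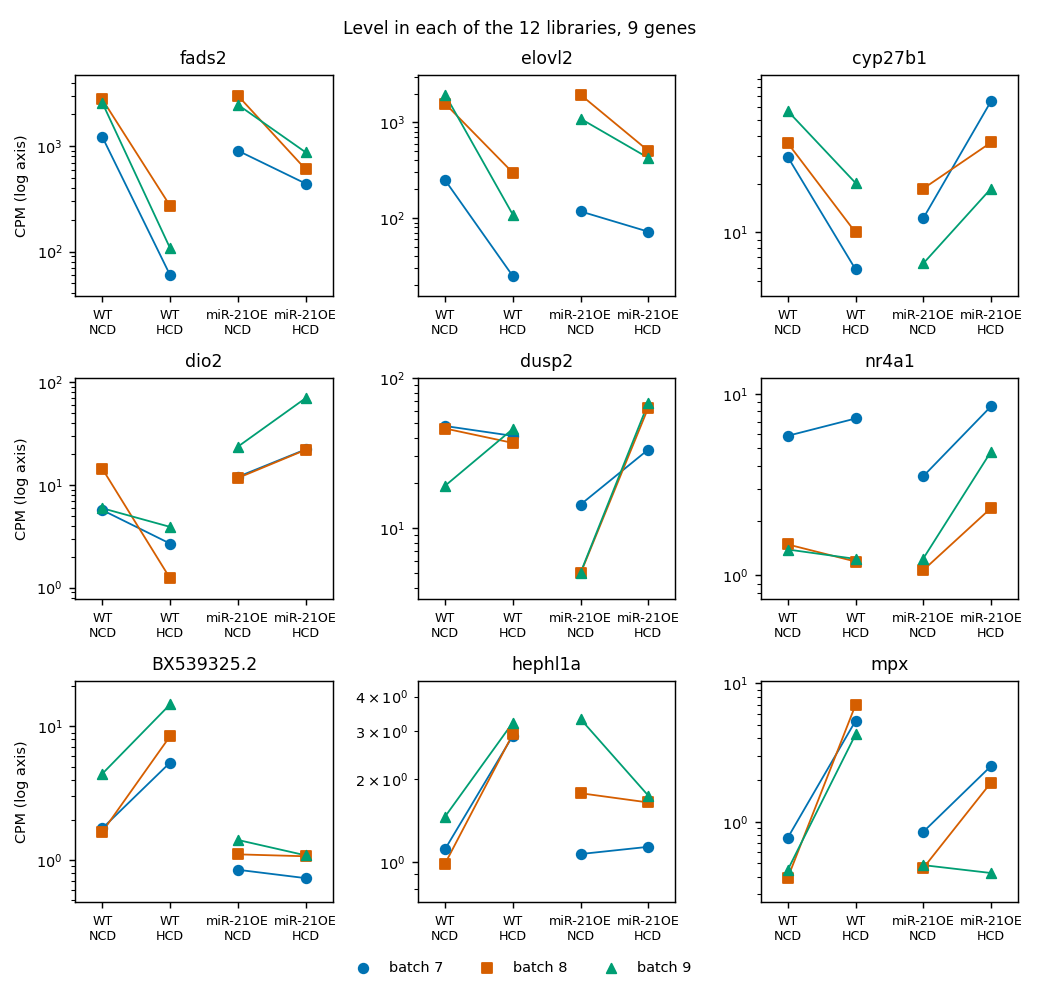
CPM (log axis) of 9 genes in each of the 12 libraries, with colour and marker for the batch and a line joining the diets within a genotype and batch. In WT livers fads2, elovl2, cyp27b1 and dio2 were lower on cholesterol in 3 of 3 batches, while in miR-21OE livers cyp27b1 and dio2 were higher in 3 of 3 and fads2 and elovl2 were lower by less.

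Genes of sterol synthesis had the highest median interaction of the 19 lists, 0.95 over 22 genes beside 0.04 for all 11030 genes. Their median diet difference was below 0 in both genotypes, at -4.31 in WT and -3.37 in miR-21OE livers. In batch 7 several of them hardly responded, with WT diet differences of -0.79 for hmgcs1, 0.073 for SQLE and 0.29 for mvk. Others fell there, such as hmgcra (-5.22) and cyp51 (-4.62). Of the 22, 7 had a higher interaction in all batches and 0 a lower one, beside 13.5% and 8.86% of all genes. With library totals 6 and 0 did, beside 7.70% and 14.7% of all genes. These shares are the background for every list and marker count below. The median by batch was 0.20, 0.34 and 2.37, so most of the difference came from batch 9, which holds miR-21OE-NCD 3, the library with the highest pancreas sum. The part of that library in the sterol values was not tested. Among the 7 were mvk, mvda [MVD], cyp51 [CYP51A1], nsdhl and hsd17b7, which catalyse steps between the mevalonate and late sterol stages. Of these, mvk reached a mean of 50 counts only through WT-NCD.

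The level of cyp51 by batch was 34.4, 2141 and 2623 CPM in WT-NCD, followed by 1.32, 7.57 and 4.79 CPM in WT-HCD. It came to 35, 2284 and 825 CPM in miR-21OE-NCD and to 2.20, 38.2 and 37.9 CPM in miR-21OE-HCD. This lanosterol demethylase was therefore low on NCD in both batch 7 libraries, and far higher on that diet in batches 8 and 9. WT-HCD was lowest in each batch. The interaction was 0.67, 2.23 and 4.63, and in batch 9 miR-21OE-NCD 3 lay -1.67 from WT-NCD 9 on the log2 scale while miR-21OE-HCD 3 lay 2.96 from WT-HCD 9. Across batches 1 to 6 cyp51 fell by 9.06 ± 1.04 (SD, n = 6; edgeR with Benjamini-Hochberg adjustment, adjusted p 4.98e-07).

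The sterol ketoreductase hsd17b7 was low in batch 7. hsd17b7 was at 0.845, 106 and 227 CPM in WT-NCD of batches 7, 8 and 9, and at 0.0993, 1.73 and 0.753 CPM in WT-HCD. The miR-21OE livers had 0.356, 72.4 and 16.9 CPM on NCD and 0.293, 2.07 and 0.814 CPM on HCD. Its interaction was 2.17, 0.80 and 3.85, and in batch 9 the value came from the control diet, where miR-21OE-NCD 3 was -3.75 from WT-NCD 9, while the genotypes were 0.10 apart on cholesterol. For the decarboxylase mvda the interaction was 0.96, 0.85 and 1.71, with genotype differences of 0.047, 0.71 and -2.63 on NCD and 1.0, 1.56 and -0.92 on HCD. In batch 7 the mvda value rests on 28 and 11 counts in WT-NCD and WT-HCD, and 25 and 22 in miR-21OE-NCD and miR-21OE-HCD.

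Of 12 SREBP and LDL uptake genes, 4 were higher in all batches and 0 lower, beside 13.5% and 8.86% of all genes, and the other 8 had mixed signs. The median interaction was 0.52, and with library totals 2 were higher and 1 lower. The 4 were the sterol sensor SCAP (0.24, 0.65 and 0.50), the LDL receptor ldlra (0.0022, 0.29 and 1.32), mylipb (0.83, 1.78 and 0.049), a ubiquitin ligase that degrades that receptor in mammals, and the sterol carrier stard4 (0.63, 0.026 and 1.28). Of 11 LXR and export genes, 0 were higher and 4 lower, beside the same shares of all genes. The other 7 had mixed signs, and the median was -0.20. The 4 were the receptor LXR itself, nr1h3 (-0.03, -0.073 and -1.01), the exporters ABCA1 (-0.40, -0.18 and -0.015) and abcg1 (-0.20, -0.43 and -1.92), and the cholesterol-esterifying enzyme soat2 (-0.68, -0.27 and -1.33). For nr1h3, abcg1 and soat2 the largest value was in batch 9. In WT-only batches abcg1 rose on cholesterol in 6 of 6 (edgeR with Benjamini-Hochberg adjustment, adjusted p 0.0293), and its mean diet difference in batches 7 to 9 was 4.19 in WT and 3.34 in miR-21OE livers.

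The 30 genes of fatty acid oxidation and PPAR signalling had a median interaction of 0.18, with batch medians of 0.68, -0.40 and 0.20. Of them 7 were higher and 0 lower, beside 13.5% and 8.86% of all genes (4 and 0, beside 7.70% and 14.7%, with library totals). The nuclear receptors pparaa (0.88, 0.47 and 1.91), pparab (0.61, 1.14 and 0.36) and pparg (0.78, 0.41 and 0.092) were among them, as were the coactivator PPARGC1A (0.089, 0.55 and 0.19) and the carnitine palmitoyltransferase CPT1A (0.20, 0.27 and 0.088). Signs were mixed for the PPARD genes, cpt1ab, CPT1B (1.96, -1.28 and 0.063) and CPT2. The oxidation enzymes ACADS, acadm, ACADL, ACADVL, HADH, hadhaa, HADHA and HADHB also had mixed signs, and all of these enzymes were below 0 in batch 8. In WT-only batches pparaa fell on cholesterol in 6 of 6 (edgeR with Benjamini-Hochberg adjustment, adjusted p 0.0495). The lipid droplet coat PLIN2 had interactions of 0.94, 0.75 and 2.57. In batches 7, 8 and 9, PLIN2 was at 2.23, 204 and 230.0 CPM in WT-NCD and at 3.14, 41.1 and 35.2 CPM in WT-HCD. Its level in miR-21OE-NCD was 0.623, 209 and 11.0 CPM, and that in miR-21OE-HCD was 1.79, 71.3 and 10.0 CPM. Batch 7 was near the bottom of its range in all groups, and miR-21OE-NCD 3 was -4.38 from WT-NCD 9.

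Fatty acid binding proteins gave 0 same-sign genes of 4, and apolipoproteins and lipoprotein assembly 1 higher and 1 lower of 22. These were apoa4b.1 (1.91, 0.12 and 1.4), an apolipoprotein of triglyceride-rich particles, and the cholesteryl ester transfer protein CETP (-0.24, -0.19 and -0.56). Bile acid synthesis and transport had 1 higher of 12 and no lower one. It was 1 of 3 genes with the name CYP8B1 (ENSDARG00000053068; 0.61, 0.31 and 0.59), and the other two had mixed signs. Glycolysis and gluconeogenesis had 3 higher of 31 (2 higher and 1 lower with library totals), ENO3 and both glucose-6-phosphatases g6pc1a.1 (0.64, 0.43 and 0.32) and G6PC1 (0.96, 0.20 and 0.21). Median interactions of these lists were -0.09, 0.13, 0.08 and 0.11, and the median for bile acid genes was -0.02 with library totals.

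A pair of hormone-activating enzymes had opposite diet differences in the genotypes in every batch. cyp27b1 (ENSDARG00000045015) encodes the hydroxylase that activates vitamin D, and dio2 (ENSDARG00000094857) the deiodinase that activates thyroid hormone. WT livers had 29.4, 35.9 and 56.8 CPM of cyp27b1 on NCD and 5.89, 9.99 and 20.3 CPM on HCD in batches 7, 8 and 9. For miR-21OE livers the values were 12.2, 18.7 and 6.41 CPM on NCD and 65.4, 36.2 and 18.7 CPM on HCD. On the control diet the miR-21OE libraries were below WT in 3 of 3 batches, and across batches no overlap was found between those groups. On the high-cholesterol diet they were above in batches 7 and 8 and level in batch 9 (3.45, 1.85 and -0.12 on the log2 scale). The interaction was 3.51 ± 1.05 (SD, n = 3), with a Benjamini-Hochberg adjusted p of 0.0143 by DESeq2 with the replicate block and no call by edgeR, with or without the block. In the WT-only batches cyp27b1 was lower on cholesterol in 6 of 6, with a diet difference of -1.90 ± 1.36 (SD, n = 6), without passing in edgeR (Benjamini-Hochberg adjusted p 0.432, or 0.0548 with the replicate block).

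The level of dio2 by batch was 5.68, 14.4 and 5.93 CPM in WT-NCD, followed by 2.68, 1.23 and 3.90 CPM in WT-HCD. It came to 12.0, 11.7 and 23.6 CPM in miR-21OE-NCD and to 22.2, 22 and 69.9 CPM in miR-21OE-HCD. All 3 miR-21OE-HCD libraries lay above all 6 WT libraries. The genotype differences were 3.01, 4.08 and 4.14 on HCD and 1.07, -0.30 and 1.98 on NCD. The interaction was 2.83 ± 1.34 (SD, n = 3), with a Benjamini-Hochberg adjusted p of 0.023 by DESeq2 with the replicate block and no call by edgeR. Across batches 1 to 6 dio2 was lower on cholesterol in 6 of 6, with a diet difference of -2.42 ± 1.08 (SD, n = 6) and an edgeR adjusted p (Benjamini-Hochberg) of 0.304 without and 0.0215 with the replicate block.

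The deubiquitinating enzyme usp2b (ENSDARG00000074120) had WT diet differences of -1.55, -1.56 and -0.41 and miR-21OE diet differences of -0.013, 0.48 and 0.78. Its genotype differences were -0.30, -0.35 and -0.33 on NCD and 1.24, 1.70 and 0.86 on HCD, so the separation lay on cholesterol.

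Among the other higher genes with a large value in every batch, the pyridoxal phosphatase pdxp had the most even interaction (1.09, 1.15 and 1.22), and it was lower on cholesterol in 6 of 6 WT-only batches, with a diet difference of -0.73 ± 0.46 (SD, n = 6). The kinase dyrk4 had values of 1.06, 1.2 and 2.12, with a WT-only diet difference of -1.68 ± 1.23 (SD, n = 6) and an edgeR adjusted p (Benjamini-Hochberg) of 0.356, or 0.0296 with the replicate block. The codanin gene cdan1 had 1.94, 1.03 and 1.2. The cadherin CDH24 varied more between batches than between groups, from 0.0384 CPM in WT-NCD 7 to 29.3 CPM in WT-NCD 8. Its interaction was 2.61, 1.45 and 1.70. These values rest on 1 count in each NCD library of batch 7 and on at most 5 counts per library in batch 9. The FK506-binding protein family gene fkbp15a (1.42, 2.33 and 1.71) reached its highest level, 27.3 CPM, in miR-21OE-HCD 2.

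**Figure D4:**
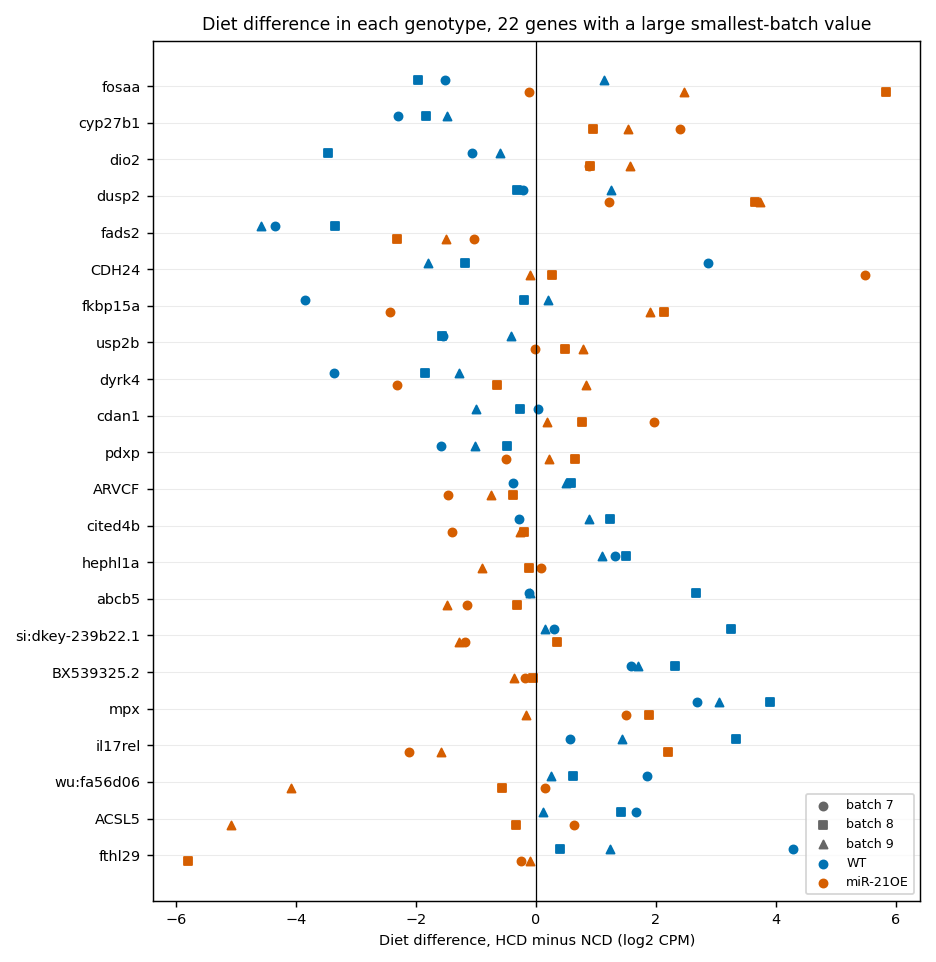
Diet difference (HCD minus NCD, log2 CPM, x axis) in WT (blue) and miR-21OE (orange) livers for 11 higher and 11 lower genes with a large smallest-batch value (y axis), with a marker for each batch. The values of the genotypes do not overlap for cyp27b1, dio2, fads2, usp2b, cdan1, ARVCF, hephl1a, abcb5, BX539325.2, mpx, wu:fa56d06 and fthl29, and the batch spread is wide for fosaa, CDH24, ACSL5 and fthl29. The genes were chosen for a large interaction in every batch, so such separation is largely set by the choice. For ARVCF the nearest values were -0.382 in WT and -0.385 in miR-21OE livers.

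Immediate early genes, which are transcribed within minutes of a stimulus, gave 8 higher and 0 lower of 24, with a median interaction of 0.87 beside 0.04 for all genes. Among all genes, 13.5% were higher and 8.86% lower. With library totals 4 were higher and 0 lower, beside 7.70% and 14.7% of all genes. The median by batch was 0.085, 2.51 and 0.48, so batch 8 carried most of it. The median diet difference was 0.06 in WT and 1.13 in miR-21OE livers. dusp2 (ENSDARG00000098108), a phosphatase that switches off MAP kinases, was the member called by DESeq2 with the replicate block (Benjamini-Hochberg adjusted p 0.0379), and it was not called by edgeR. In batches 7, 8 and 9, dusp2 was at 47.9, 46.1 and 19 CPM in WT-NCD and at 41.1, 36.9 and 45.8 CPM in WT-HCD. Its level in miR-21OE-NCD was 14.3, 4.98 and 5.04 CPM, and that in miR-21OE-HCD was 33.4, 63.4 and 68.0 CPM. The 3 miR-21OE-NCD libraries lay below all 9 others. The genotype differences were -1.73, -3.19 and -1.91 on NCD and -0.30, 0.78 and 0.57 on HCD, so most of its interaction lay on NCD. In WT-only batches dusp2 was lower on cholesterol in 5 of 6, with a diet difference of -0.97 ± 1.36 (SD, n = 6), and was not called.

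The transcription factor gene fosaa had interactions of 1.4, 7.80 and 1.33, and it passed the mean of 50 counts only through miR-21OE-HCD, where 1 library carried the value of batch 8. It reached 16.4 CPM in miR-21OE-HCD 2, against at most 2.50 CPM in the other 11 libraries. The orphan nuclear receptor nr4a1 was at 3.52, 1.07 and 1.24 CPM in miR-21OE-NCD and at 8.53, 2.35 and 4.81 CPM in miR-21OE-HCD, with 5.87, 1.48 and 1.39 CPM in WT-NCD and 7.32, 1.19 and 1.23 CPM in WT-HCD. Its interaction was 0.95, 1.38 and 2.06. The zinc finger factors egr2a (0.20, 5.17 and 2.79) and KLF6 (0.14, 1.28 and 1.92), the AP-1 member JUND (0.097, 2.44 and 1.86) and NR4A3 (0.072, 3.42 and 1.15) were at most 0.20 in batch 7 and at least 1.15 in batches 8 and 9.

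One-carbon and purine genes gave 8 higher and 0 lower of 23, beside 13.5% and 8.86% of all genes. With library totals they gave 7 and 0, beside 7.70% and 14.7%. Their median interaction was 0.31, with batch medians of 0.72, -0.046 and 0.24. The mitochondrial folate enzyme mthfd2 had opposite diet differences in every batch, -0.15, -0.014 and -0.80 in WT and 0.79, 0.74 and 1.35 in miR-21OE livers. It was at 4.85, 3.17 and 1.90 CPM in miR-21OE-NCD and 8.46, 5.34 and 4.96 CPM in miR-21OE-HCD, and at 3.57, 2.91 and 2.93 and 3.21, 2.88 and 1.64 CPM in WT on NCD and HCD. The purine enzyme atic was lower on cholesterol in both genotypes, by less in miR-21OE livers, with an even interaction of 0.83, 0.51 and 0.85. Also higher were MTHFD1 (ENSDARG00000018266; 1.49, 0.33 and 0.62), the purine enzymes paics (0.72, 0.22 and 1.2) and PPAT (0.38, 0.17 and 0.37), the methionine adenosyltransferase mat2aa (0.36, 0.14 and 1.52) and ALDH1L1. A second, more abundant gene with the name MTHFD1 (ENSDARG00000040492) had mixed signs (0.83, -0.22 and -0.0044).

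In the insulin-like growth factor axis 6 of 18 genes were higher and 2 lower, beside 13.5% and 8.86% of all genes. With library totals 4 and 2 were, beside 7.70% and 14.7%. The median interaction was 0.11, and it was close to 0 with library totals. The higher ones were the ligands igf2a (0.34, 0.025 and 0.43) and igf2b (1.05, 0.96 and 0.37), the circulating carriers IGFBP2 (1.21, 0.012 and 0.65) and IGFALS (0.79, 0.79 and 0.52), the growth hormone receptor ghra (1.15, 1.71 and 0.054) and INSR. The lower ones were the binding protein igfbp5b [IGFBP5] and the adaptor IRS1. igfbp5b had diet differences of 0.34, 1.06 and 0.47 in WT and -0.80, -0.11 and -0.35 in miR-21OE livers, and miR-21OE-HCD was below WT-HCD in 3 of 3 batches (-2.17, -1.05 and -0.94). In the WT-only batches it was higher on cholesterol in 6 of 6, by 0.93 ± 0.60 (SD, n = 6), with an edgeR adjusted p (Benjamini-Hochberg) of 0.185, or 0.0445 with the replicate block. IRS1, which relays the insulin receptor signal, had an interaction of -0.78, -0.62 and -0.81.

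Endoplasmic reticulum stress genes gave 5 higher and 0 lower of 23, beside 13.5% and 8.86% of all genes, with a median interaction of 0.26. The 5 were the chaperone HSP90B1 (1.68, 0.019 and 1.03), the disulfide isomerase PDIA3, and the stress transcription genes DDIT3 (0.51, 1.18 and 0.30), atf4b (0.50, 0.51 and 0.087) and TRIB3 (0.35, 2.48 and 0.036). Amino acid and urea enzymes gave 2 higher and 2 lower of 18, and acute phase and complement genes 2 and 2 of 24, with median interactions of 0.07 and 0.01, which were -0.04 and -0.10 with library totals (acute phase 1 higher and 5 lower). Cell division genes gave 2 higher of 16, MCM2 (0.24, 0.81 and 0.50) and MCM4 (0.19, 0.10 and 0.64), with batch medians of -0.49, -0.78 and 0.71 and a median of 0.06 (-0.04 with library totals). Of 19 genes known as miR-21 targets in mammals, 4 were higher and 3 lower, with a median of 0.08 (-0.02 with library totals). SPRY1, an inhibitor of growth factor signalling, had interactions of -1.73, -0.71 and -0.19. It was named after its values were seen and does not stand for the target list, whose members went both ways.

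**Figure D5:**
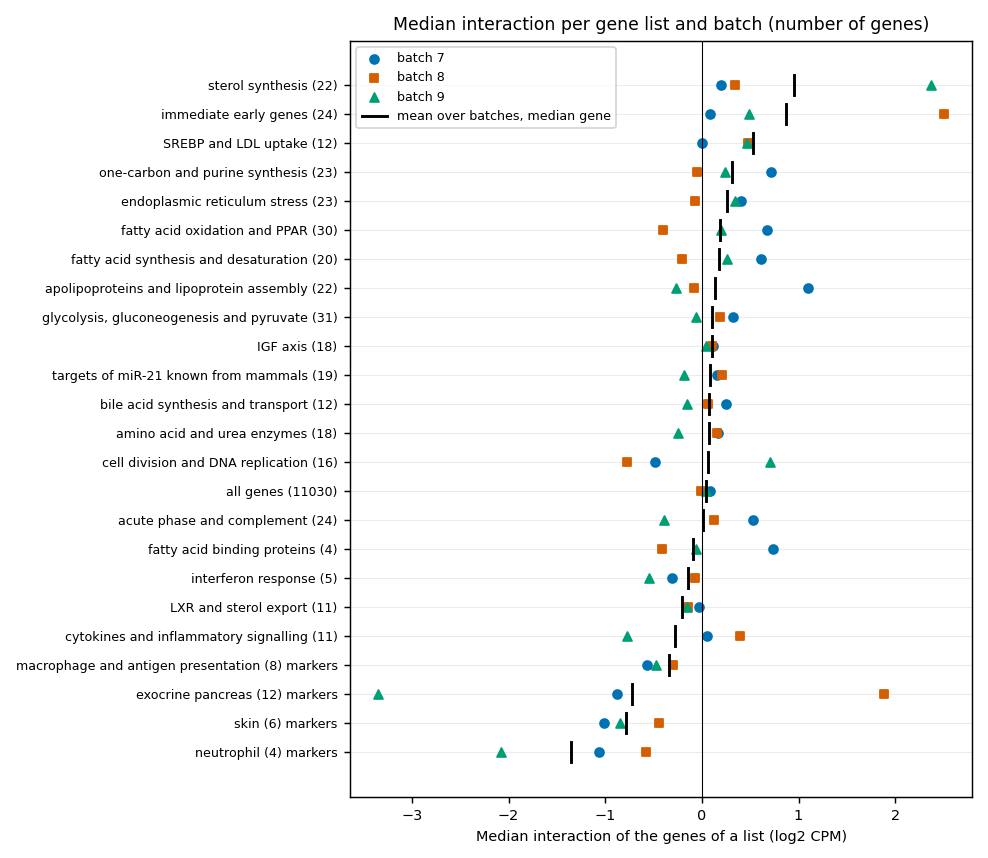
Median interaction (log2 CPM, x axis) of each gene list and of 4 cell type marker lists (y axis, in brackets the number of genes averaging 50 counts or more), with a marker per batch and a black bar for the median over genes of the mean of the batches. Sterol synthesis is highest at 0.95, and batches differ most for exocrine pancreas markers, from -3.35 in batch 9 to 1.89 in batch 8.

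The summed level of 11 neutrophil markers was 72.6 to 128 CPM in WT-NCD, 183 to 241 in WT-HCD, 95.0 to 156 in miR-21OE-NCD and 151 to 224 in miR-21OE-HCD, with interactions of -0.84, -0.03 and -0.76 by batch. On NCD the sum was 156, 95.0 and 95.8 CPM in miR-21OE and 128, 76.0 and 72.6 CPM in WT livers of batches 7, 8 and 9. On HCD it was 151, 224 and 187 CPM in miR-21OE and 224, 183 and 241 CPM in WT livers. In these bulk samples, the number of neutrophils and the RNA per neutrophil cannot be told apart. By histology, the study reports no effect of miR-21OE on diet-induced inflammation at this age. The granule enzyme gene mpx [EPX] (ENSDARG00000019521) passed a mean of 50 counts only through WT-HCD, where it is highest. WT livers had 0.768, 0.395 and 0.450 CPM of mpx on NCD and 5.36, 6.99 and 4.28 CPM on HCD in batches 7, 8 and 9. For miR-21OE livers the values were 0.846, 0.463 and 0.486 CPM on NCD and 2.53, 1.92 and 0.426 CPM on HCD. WT-HCD lay above all 9 other libraries. The genotypes were alike on NCD (0.13, 0.19 and 0.096) and apart on cholesterol (-1.06, -1.82 and -3.12). Across batches 1 to 6 mpx was higher on cholesterol in 5 of 6 and was not called, with a diet difference of 2.39 ± 3.13 (SD, n = 6).

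Of the other markers, mmp9 (-1.68, -0.87 and -3.37), lect2l [LECT2] (-0.94, -0.29 and -0.95) and il6r (-0.33, -0.05 and -0.39) also reached that mean and were lower in all batches. Thus 4 of the 11 neutrophil markers reached it and 4 were lower, beside 8.86% of all genes. Because mpx reached it only through WT-HCD, this count depends in part on the filter. The sum over all 11 was at -0.03 in batch 8. lect2l rose on cholesterol in the WT-only batches in 6 of 6 (edgeR with Benjamini-Hochberg adjustment, adjusted p 0.014). Of 8 macrophage and antigen presentation markers, 0 were higher and 3 lower, beside 13.5% and 8.86% of all genes. The 3 were MPEG1 (-0.20, -0.37 and -0.54), LCP1 (-0.63, -0.38 and -0.83) and CORO1A (-0.70, -0.0028 and -0.52). Their summed level over all 23 markers had interactions of -0.66, 0.37 and -1.22. Of 11 cytokine and signalling genes, acod1, the itaconate-producing enzyme of activated macrophages, was lower (-0.38, -1.24 and -1.44) and none higher. Of 5 interferon genes, stat2 (-0.75, -0.071 and -0.44) and the peptide transporter TAP1 (-0.73, -0.62 and -0.85) were lower.

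Among the 12 lowest, hephl1a (ENSDARG00000059231) encodes a hephaestin-like ferroxidase and fthl29 (ENSDARG00000113977) a ferritin heavy chain-like protein. The mean of hephl1a reached 50 counts only through WT-HCD, with 87, 76 and 94 counts there. The level of hephl1a by batch was 1.11, 0.987 and 1.46 CPM in WT-NCD, followed by 2.88, 2.92 and 3.22 CPM in WT-HCD. It came to 1.07, 1.78 and 3.31 CPM in miR-21OE-NCD and to 1.14, 1.65 and 1.74 CPM in miR-21OE-HCD. The 3 WT-HCD libraries were alike and above all 3 WT-NCD libraries, while miR-21OE-NCD 3 reached the WT-HCD level. Across the WT-only batches hephl1a was higher on cholesterol in 6 of 6, by 1.24 ± 0.60 (SD, n = 6), with an edgeR adjusted p (Benjamini-Hochberg) of 0.158, or 0.0324 with the replicate block. fthl29 had interactions of -4.53, -6.20 and -1.34, which rest on single libraries: it was at 45.1 CPM in WT-HCD 7 and 17.8 CPM in miR-21OE-NCD 2, and at most 2.23 CPM in the other 10 libraries.

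BX539325.2 (ENSDARG00000095909, si:ch211-253b18.3 in the gene table), for which no role is given here, reached a mean of 50 counts only through WT-HCD, with 162, 220 and 427 counts there. In batches 7, 8 and 9 it was at 1.73, 1.63 and 4.43 CPM in WT-NCD and at 5.36, 8.45 and 14.6 CPM in WT-HCD. The miR-21OE livers had 0.846, 1.1 and 1.41 CPM on NCD and 0.732, 1.07 and 1.09 CPM on HCD. All 6 miR-21OE libraries lay below all 6 WT libraries, and the diet difference in miR-21OE livers was at most -0.36 (batch 9) in size. The interaction was -2.07 ± 0.29 (SD, n = 3) and was not called. Its WT-only diet difference was 0.33 ± 0.85 (SD, n = 6), higher in 4 of 6, so the WT diet differences of batches 7 to 9 (1.59, 2.32 and 1.71) were not matched there.

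The coactivator gene cited4b (-1.12, -1.42 and -1.15) and the catenin ARVCF (-1.08, -0.98 and -1.25) had even interactions of moderate size. The interleukin receptor-like gene il17rel (-2.68, -1.14 and -3.01), the transporter abcb5 (-1.05, -2.98 and -1.38) and si:dkey-239b22.1 (-1.48, -2.90 and -1.44) were at several CPM in the WT libraries of batch 7 and under 5 CPM in batches 8 and 9. The acyl-CoA synthetase ACSL5 (-1.04, -1.75 and -5.20) and wu:fa56d06 (-1.69, -1.18 and -4.34) took their largest values in batch 9. Of these genes, il17rel, abcb5 and si:dkey-239b22.1 reached a mean of 50 counts only through WT livers. Over the libraries outside WT-HCD, il17rel and abcb5 fell short of that mean. ACSL5 was at 32.7 CPM in miR-21OE-NCD 3, against at most 8.18 CPM in the other 11 libraries. It is expressed in the absorptive cells of the gut, and the 2 lower genes of 10 intestine markers were the peptide transporter SLC15A1 (-0.11, -1.64 and -5.45) and chia.1 (-0.34, -1.92 and -5.84), with none higher. The summed level of all 14 intestine markers had interactions of 1.24, -0.40 and -0.20. miR-21OE-NCD 3 is the one with the highest exocrine pancreas sum, and the part of other tissue in these values was not tested.

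Of 6 skin markers with a mean of at least 50 counts, 4 were lower and 0 higher in all batches, beside 8.86% and 13.5% of all genes. The 4 were the keratins krt5 (-0.47, -1.1 and -0.67), cyt1 (-1.96, -0.93 and -1.13) and cyt1l (-1.59, -0.42 and -1.76) and icn (-1.37, -0.083 and -1.02). The summed level of 7 skin markers was 318 to 1140 CPM in WT-NCD, 184 to 740 in WT-HCD, 215 to 802 in miR-21OE-NCD and 194 to 421 in miR-21OE-HCD, with interactions of -0.31, -0.25 and -0.41. Of 10 hepatocyte markers, 1 was higher and 1 lower, ambp (0.77, 0.12 and 0.24) and fgb (-0.15, -0.36 and -0.47). Exocrine pancreas markers had no same-sign gene of 12, and muscle markers none of 8.

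The study describes a list of 17 genes as having opposite directions of the WT diet effect and the miR-21OE effect on HCD. The list was chosen on these libraries, so its direction here is not independent evidence. Of the 17, fads2, elovl2, usp2b and dio2 were among the higher same-sign genes and mpx and BX539325.2 among the lower ones. DOCK4 (2.06, 2.41 and 2.31) and stmn2b (0.63, 2.25 and 1.45) were higher, and fstl3 (-2.37, -0.74 and -4.29), itga2.1 (-4.34, -2.57 and -0.28), itga2.3 (-3.62, -0.88 and -1.66) and si:dkey-96l17.6 (-2.95, -0.91 and -2.0) lower, in all batches, with means below 50 counts. The other 5 changed sign between batches. They were nos1 (0.19, -0.25 and 1.45), necab3 (-0.72, 0.047 and -0.47), kremen1 (-0.075, 1.12 and -0.25), tmem59l (-1.12, 3.22 and 1.2) and si:ch211-152c8.2 (1.43, 0.70 and -1.02). Of these, tmem59l and kremen1 were higher on cholesterol in the WT livers of every batch. On HCD they were also higher in miR-21OE than in WT livers in every batch. For tmem59l the mean log2 difference was 2.02 for diet in WT livers and 2.56 for genotype on HCD. For kremen1 these means were 1.57 and 1.33, so neither gene had the opposite directions described for the list. The study describes its further WT samples as included for a comparison with mice, not for that list. In the WT-only batches the integrin gene itga2.1 was higher on cholesterol in 6 of 6, by 3.14 ± 1.21 (SD, n = 6), with an edgeR adjusted p (Benjamini-Hochberg) of 0.149, or 0.0203 with the replicate block.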

How the data were processed

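Pooled larval livers were profiled by bulk RNA-seq. The raw counts per gene were deposited by the authors as 1 table without normalization, and the submitters' processing notes name cutadapt 1.16, STAR 2.7.9a, featureCounts 1.6.3 and the genome build GRCz11, with strand settings not given in the sources used here. Near-identical copies, overlapping genes and antisense partners are therefore uncertain, and no coordinates are given because no GRCz11 annotation was used here. Names follow the study and then a gene table, whose symbol stands in brackets where it differs.

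Batches 7 to 9 (22380251 to 30487724 counts per library) were fitted with 1 mean per group in edgeR 4.0.16 (R 4.3.3) by the two-sided quasi-likelihood test with TMM scaling, for genes with a total of at least 10 counts, and p-values were adjusted by Benjamini-Hochberg at a threshold of 0.05. Batches 1 to 6 (16942574 to 36641566 counts) were fitted in the same way for the diet. DESeq2 1.42.0 was an alternative. Values per batch are log2 CPM with a prior count of 2, and CPM printed are scaled by TMM. An exact two-sided sign test over 3 batches cannot go below 0.25, so none was used. The p-values measure only the spread between these libraries. Libraries of the same batch deviated from their group means together, at r = 0.466 on average (lowest 0.192, 18 pairs), and the labels give them a shared batch, so the batch pairs them. Over 36 pairs of different batches the value was -0.216. Deviations sum to 0 within each group of 3 libraries, so that value is pushed below 0 and is not an independent baseline. No 2 libraries of a group agreed within sampling noise.

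The genes described, the gene lists and the tests were chosen with earlier results of these data known. Genes named are those called for the interaction by any fit, the 12 higher and 12 lower with the largest smallest-batch value, up to 4 same-sign members per pathway list with a smallest value of at least 0.5, the study's list of 17, and the transgene check. Other list and marker genes, and FBP2, were named after their values were seen. A few of these genes are not reported here. Scripts were tested on simulated data with known interactions, 100 genes each of size 2 and 3 on the log2 scale. edgeR recovered 7 and 55 without the block, with 0 false calls, and 47 and 87 with it, with 13 false calls. DESeq2 with the replicate block recovered 64 and 89, with 37 false calls.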

Additional observations from a re-analysis of the deposited data

Results flagged for a closer look

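For 6 named genes the diet difference was on one side of 0 in all 3 WT pairs and on the other side in all 3 miR-21OE pairs. These 6 were named for a sizeable interaction of the same sign in every batch, so the choice favoured this pattern. Among the 11030 genes compared, 150 had it, and whether that exceeds chance was not tested. The mean interaction was 3.51 for cyp27b1, 2.83 for dio2 and 1.28 for mthfd2, and it was -2.07 for BX539325.2, -4.02 for fthl29 and -1.05 for igfbp5b. The difference between genotypes was called for cyp27b1 and dio2 by DESeq2 with the replicate block and for none of the 6 by edgeR. The WT diet difference of mthfd2 in batch 8 was as small as -0.014.

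Among the WT-only batches, 1 batch stood apart from the other 5 for 2 of 44 named genes, where chance gives about 1 in 20. The diet difference of mpx was 8.40 in batch 6, and that of il17rel was 2.43 in batch 1.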

How the results depend on the processing

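The count of 0 interaction genes held in edgeR with the replicate block, DESeq2 size factors, library totals, no filter and a stricter filter, and in DESeq2 without a batch term, while DESeq2 with the replicate block called 8. Leaving out 1 library at a time gave 0 to 1 gene, the 1 being FBP2 without WT-HCD 9 with the replicate block (edgeR adjusted p 0.0480 after Benjamini-Hochberg adjustment, interactions of -1.21, -1.86 and -5.78, mean 48.3 counts). The pairing by batch changed no other interaction call. The WT-only diet test called 34 genes, 793 with the replicate block, 918 by DESeq2, 2609 by DESeq2 with the replicate block and 92 with library totals. Alternatives chosen after seeing the data were the block with library totals, 1777 genes, and leaving out each of the 12 libraries, with 19 to 68 genes (19 without WT-HCD 6, 68 without WT-HCD 3) and 134 to 490 with the replicate block. The same-sign counts of 1485 and 977 became 849 and 1618 with library totals, and at a mean of at least 200 counts the lower count was 432. They stayed within 1.5 times with prior counts of 0.5 and 5, with DESeq2 size factors and at a mean of at least 20 counts, and they could not be recomputed with 1 library left out, since each batch needs all 4 groups. With 1 batch left out, the correlation of -0.46 with the WT-only diet response lay between -0.45 (without batch 8) and -0.23 (without batch 7). The 37 same-sign genes named by rule kept their sign in each batch under library totals and DESeq2 size factors. Most of them were chosen for a large smallest-batch value, so this outcome was largely set by the choice. Other list genes, some with values close to 0, were not in this count. With library totals, fewer members of several lists were higher in all batches, as given with those lists. For single named genes, 1674 of 1682 pairs of a gene and a setting stayed on their side of the threshold, 8 became calls, 0 reversed, and 56 uncalled estimates in 14 of 53 genes turned sign. With SEs near 0.48, an interaction must be well above that size to be told from 0 for a typical gene, even without an adjustment. Much larger ones could also go uncalled. On simulated data, edgeR without the block recovered 7 of 100 interactions of size 2 and 55 of 100 of size 3 (log2). The count of 0 calls therefore does not show that interactions were absent.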
